A study of Mus musculus with 23 samples.

Results

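The genes described here are 8 annexins, *Anxa1*, *Anxa2*, *Anxa3*, *Anxa4*, *Anxa5*, *Anxa6*, *Anxa7* and *Anxa11*, and the S100 genes *S100a10* and *S100a11*, chosen by name from the 56941 genes of each count table and matched by Ensembl identifier on GRCm39. All 10 were found. They were measured by RNA-seq in primary hippocampal neurons of newborn (P0) homozygous Nedd8cKO mice, a CRISPR line that carries loxP sites in *Nedd8*, made in FVB/N zygotes and listed by the study as C57BL/6N, *Nedd8* being the gene of a ubiquitin-like modifier, so that the controls carry the same floxed alleles. At DIV1 the neurons received lentivirus that drives, from the Synapsin1 promoter, either RFP alone or CRE recombinase tagged with RFP, and RNA was taken at day 12 according to the sample labels and at DIV13 according to the methods of the study. Of 23 libraries, 12 CRE and 11 RFP, the comparison used the 21 of the study's own count table, 11 CRE and 10 RFP, without CRE3-3 and RFP3-2. The digit before the hyphen of a library name was read as the number of the culture, which no source states in words, and the p-values measure the spread between these libraries. Nor does a source state that CRE and RFP libraries of the same number share a culture. Deviations of the culture means from their group means correlated at only 0.0207 to 0.141 between CRE and RFP.

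Annexins are soluble proteins that bind acidic phospholipids of membranes when calcium rises, through a repeated core domain that the family shares. S100 proteins are small EF-hand proteins that usually act as dimers, and some of them clamp the N-terminal tails of annexins. S100A10 is unusual in that it does not need calcium and joins annexin A2 in a tetramer at the plasma membrane, while S100A11 pairs with annexins A1 and A2. In the brain, these genes are known from glia and from reactive and injured tissue as well as from neurons, and annexin A7 is one of the members expressed widely.

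CRE-expressing cultures held more RNA of 7 of the 10 members, and no member was called lower. *S100a11* and *Anxa4* rose 5.88- and 5.18-fold, *Anxa2*, *Anxa5* and *S100a10* rose between 2.79- and 2.91-fold, *Anxa11* rose 2.13-fold and *Anxa6* 1.75-fold. For *Anxa7* and *Anxa3* no change was called, and *Anxa1* was too low to be tested. Beside these 7 of 9 tested members, 16.4% of all 14488 genes tested were called higher in CRE and 30.2% were called in either direction, where a call means that edgeR's quasi-likelihood F-test gave a Benjamini-Hochberg adjusted p below 0.05 among these genes. The members and the gene lists below were chosen with earlier results of these data known. Shares of all genes set beside them are therefore a description and no test of enrichment. DESeq2 and limma-voom called 0 members lower as well, and the 7 members with an unadjusted p under 0.05 from edgeR were those called higher. The plot of the members by library shows the single values.

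**Figure D1:**
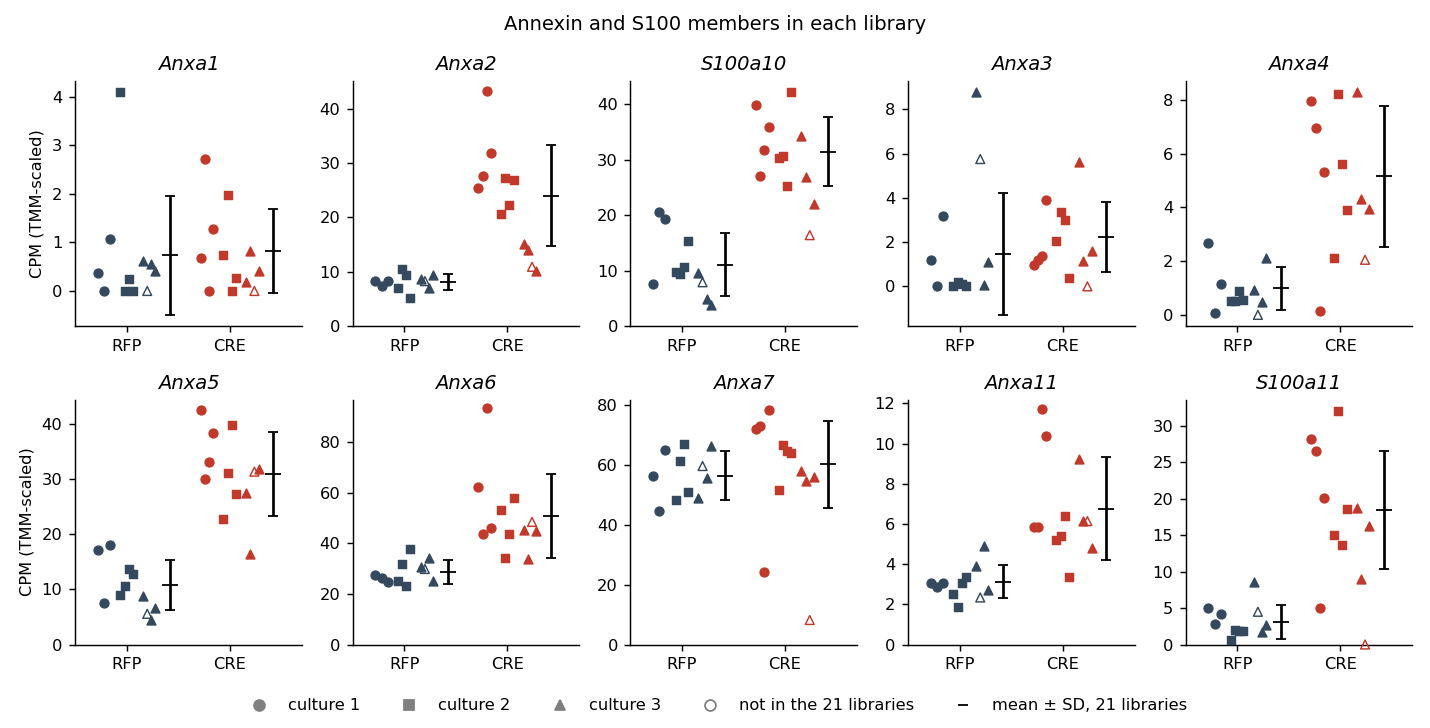
Each panel plots 1 member in CPM, counts scaled to library size by TMM factors, in RFP (dark blue) and CRE (red) libraries. Marker shape gives the culture, open markers are CRE3-3 and RFP3-2, which were not in the 21 libraries, and black bars are the mean ± SD of the 21. All 11 CRE libraries of *S100a10* sit above 20.5 CPM, the highest RFP value, while the groups of *Anxa7* lie on each other.

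Totals of counts assigned to genes ran from 7430401 to 13345552 in the 11 CRE libraries and from 9833872 to 17112815 in the 10 RFP libraries, and at this depth 3 counts correspond to 0.179 to 0.409 CPM. *Nedd8* itself fell by 2.44 on the log2 scale (SE 0.17, adjusted p = 6.98e-11 from edgeR), with 5.92 to 18 CPM in CRE and 44.1 to 76 in RFP libraries. Libraries that stood apart from the rest were CRE1-3, CRE3-3 and RFP2-4, with 0.261%, 1.83% and 3.43% of counts on mitochondrial genes against 7% to 11.1% in the other 20 libraries, and with another trend over GC content. RFP3-2 had a TMM factor of 0.731 against 0.951 to 1.1 in the others. Results were therefore repeated in 19 libraries without these 4 and in all 23. The same 7 members were called higher in all 3 sets, where 19.4% of genes were called higher in the 19 libraries and 16.4% in the 23.

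Promoter sequences were at hand for 7 members, from the RefSeq table on GRCm38.p6, which lists 9 starts for them. The 250 bases before the start are printed for 4 of the members that rose and for *Anxa7*, the abundant member for which no change was called, so that their sequence can be read beside their levels. Capitals mark matches on either strand to the AP-1 motif TGANTCA and to the GC box GGGCGG, which do not overlap each other in these windows.
*S100a11*, chr3:93520246-93520495, plus strand: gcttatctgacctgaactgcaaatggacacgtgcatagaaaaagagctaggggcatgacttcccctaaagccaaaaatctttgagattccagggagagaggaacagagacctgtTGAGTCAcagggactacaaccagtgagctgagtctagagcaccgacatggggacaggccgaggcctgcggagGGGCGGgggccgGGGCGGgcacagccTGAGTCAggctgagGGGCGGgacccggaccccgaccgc
*Anxa2*, chr9:69453433-69453682, plus strand: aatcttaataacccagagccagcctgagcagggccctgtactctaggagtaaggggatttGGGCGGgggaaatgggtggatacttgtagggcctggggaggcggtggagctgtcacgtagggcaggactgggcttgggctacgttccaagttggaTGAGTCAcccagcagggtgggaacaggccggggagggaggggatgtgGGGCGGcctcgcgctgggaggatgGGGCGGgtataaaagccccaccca
*Anxa5*, chr3:36475888-36476137, minus strand: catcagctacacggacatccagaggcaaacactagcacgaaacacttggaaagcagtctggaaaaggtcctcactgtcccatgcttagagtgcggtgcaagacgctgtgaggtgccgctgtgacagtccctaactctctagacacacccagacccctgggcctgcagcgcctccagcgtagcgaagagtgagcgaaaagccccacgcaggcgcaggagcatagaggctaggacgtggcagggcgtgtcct
*Anxa11*, chr14:25841905-25842154, plus strand: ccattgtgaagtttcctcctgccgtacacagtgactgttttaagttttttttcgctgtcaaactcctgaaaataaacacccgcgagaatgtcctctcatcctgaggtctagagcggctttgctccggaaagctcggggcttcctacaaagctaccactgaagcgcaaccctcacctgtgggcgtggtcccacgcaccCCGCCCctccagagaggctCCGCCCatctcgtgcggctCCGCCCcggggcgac
*Anxa7*, chr14:20479942-20480191, minus strand: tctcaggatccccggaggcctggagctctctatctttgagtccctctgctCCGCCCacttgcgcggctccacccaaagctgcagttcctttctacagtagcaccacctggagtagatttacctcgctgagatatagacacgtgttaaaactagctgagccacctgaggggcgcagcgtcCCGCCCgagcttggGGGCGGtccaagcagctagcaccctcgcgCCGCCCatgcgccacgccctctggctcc
*S100a11* held 2 matches to the AP-1 motif, ending 130 and 32 bases before the start, and *Anxa2* held 1, ending 89 bases before it. No other printed window held one, and of the 32851 promoter windows of this length listed there, 6.75% did. GC boxes were more common, at 32.7% of all windows, with 3 each in *S100a11*, *Anxa2* and *Anxa11* and 4 in the *Anxa7* window shown. *Anxa5* held neither motif, nor did either window of *Anxa4*, which are not printed. The TATA motif TATAAA lay 17 to 12 bases before the start of *Anxa2* and 32 to 27 before that of *Anxa1*, and 12.4% of all windows hold it. A match of the core of the antioxidant response element, TGACNNNGC, was found only in a start of *Anxa4*, against 10.2% of all windows, and the cAMP response element TGACGTCA (1.55%), the CCAAT box (33.8%) and the TEAD motif GGAATG (12.6%) were searched in the same way, of which *Anxa1* alone held a match, to the last of them. The E-box CACGTG, in 6.02% of all windows, had a match in *S100a11* and in *Anxa7*. These matches describe letters in a window and no binding was measured.

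Annexin A2 organizes actin and membrane at the cell surface, and on chromosome 9 its gene *Anxa2* (ENSMUSG00000032231, GRCm39 from 69360542 to 69399077, plus strand) spans 13 exons in the canonical transcript. *Anxa2* ran from 10.1 to 43.2 CPM in CRE libraries with a median of 25.4, and from 5.09 to 10.5 in RFP libraries with a median of 8.34. The ranges overlap only through 1 library, CRE3-4 at 10.1 CPM, and the other 10 CRE libraries lay above every RFP library. Means were 24 ± 9.22 (SD, n = 11) and 8.12 ± 1.53 (SD, n = 10), a log2 fold change of 1.54 (SE 0.21, adjusted p = 2.6e-06 from edgeR).

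S100A10, also called p11, is the obligate partner of annexin A2 in the tetramer and is protected from degradation by it. Its gene *S100a10* (ENSMUSG00000041959, chromosome 3 from 93462213 to 93474510, plus strand) stood at 22 to 42.3 CPM in CRE libraries with a median of 30.7, against 3.73 to 20.5 with a median of 9.63 in RFP libraries. It was the only member whose groups did not overlap in the 21 libraries, where 2.64% of all genes tested had every CRE library above every RFP library. The means of 31.5 ± 6.22 (SD, n = 11) and 11.1 ± 5.67 (SD, n = 10) gave a log2 fold change of 1.48 (SE 0.23, adjusted p = 2.67e-05 from edgeR). With all 23 libraries the groups overlapped, since CRE3-3 held 16.4 CPM from 24 counts. In the canonical transcript, 3.43% of the 50-base stretches also occur in many other genes.

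S100A11 binds annexins A1 and A2 and takes part in membrane repair and vesicle docking. *S100a11* (ENSMUSG00000027907, chromosome 3 from 93414382 to 93435293, plus strand) lies near *S100a10* and had the largest fold change of the members. It stood between 5.04 and 32 CPM in CRE libraries with a median of 18.6, and between 0.667 and 8.57 in RFP libraries with a median of 2.29. Only CRE1-3, at 5.04 CPM from 37 counts, fell within the RFP range. Means were 18.4 ± 8.1 (SD, n = 11) against 3.11 ± 2.31 (SD, n = 10), a log2 fold change of 2.56 (SE 0.36, adjusted p = 5e-06 from edgeR). In the 19 libraries without the ones that stood apart no RFP library reached the lowest CRE value, so that *S100a10* and *S100a11* were the members without overlap, against 3.78% of all genes in those libraries. CRE3-3 had 0 counts of *S100a11*, which allows up to 2.05 CPM at its depth of 1546796 counts. In 11.8% of its 50-base stretches the transcript is identical to 4 other annotated genes, so that its counts are uncertain by the reads placed there.

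Annexin A5 binds phosphatidylserine that has turned to the outer leaflet of a membrane, and is used as a probe of dying cells. *Anxa5* (ENSMUSG00000027712, chromosome 3 from 36503072 to 36530126, minus strand) ran from 16.4 to 42.6 CPM in CRE libraries around a median of 31.1, and from 4.43 to 18.1 in RFP libraries around a median of 9.74. Of the CRE libraries, 10 lay above every RFP library, and CRE3-2, at 16.4 CPM, fell in the RFP range. The log2 fold change was 1.49 (SE 0.22, adjusted p = 8.44e-06 from edgeR), from means of 31 ± 7.62 (SD, n = 11) and 10.9 ± 4.52 (SD, n = 10). 1810062G17Rik, annotated on the other strand, covers 353 exonic bases of *Anxa5*, and the strand setting of the counting is not given in the sources used here.

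Annexin A6 has a doubled annexin core and links membranes to the cytoskeleton and to cholesterol handling, and its canonical transcript has 25 exons. *Anxa6* (ENSMUSG00000018340, chromosome 11 from 54869654 to 54924305, minus strand) stood at 33.9 to 93.2 CPM in CRE libraries with a median of 45.1, and at 23.1 to 37.7 in RFP libraries with a median of 26.8. Its highest value came from CRE1-3 and the highest RFP value from RFP2-4. The log2 fold change was 0.80 (SE 0.15, adjusted p = 0.000249 from edgeR), with means of 50.7 ± 16.5 (SD, n = 11) and 28.6 ± 4.78 (SD, n = 10). In the 19 libraries it was 0.73 (SE 0.12, adjusted p = 1.36e-05 from edgeR). Gm74393 shares 91 exonic bases with it on the opposite strand.

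Annexin A4 is known from epithelia and self-assembles on membranes. *Anxa4* (ENSMUSG00000029994, chromosome 6 from 86713675 to 86771064, minus strand) was scarce in RFP libraries, at 0.0754 to 2.67 CPM with a median of 0.719, and stood at 0.136 to 8.29 with a median of 5.33 in CRE libraries. The lowest CRE value was that of CRE1-3 and rested on 1 count, while 9 CRE libraries lay above every RFP library. Means of 5.16 ± 2.62 (SD, n = 11) and 0.985 ± 0.809 (SD, n = 10) gave a log2 fold change of 2.37 (SE 0.49, adjusted p = 0.000559 from edgeR). Without the libraries of culture 2 the value was 2.1 with an adjusted p of 0.0523 from edgeR, which is no longer a call. Gm44036 overlaps its exons on the opposite strand over 753 bases.

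Annexin A11 carries a long N-terminal region that can form condensates and tethers RNA granules to lysosomes for transport in axons. *Anxa11* (ENSMUSG00000021866, chromosome 14 from 25842547 to 25887229, plus strand) reached 3.35 to 11.7 CPM in CRE libraries with a median of 5.85 and 1.85 to 4.91 in RFP libraries with a median of 3.04. In 9 of the 11 CRE libraries it exceeded every RFP library. The log2 fold change was 1.09 (SE 0.24, adjusted p = 0.000939 from edgeR), and the means were 6.76 ± 2.57 (SD, n = 11) and 3.13 ± 0.826 (SD, n = 10). *Anxa11* shares 699 exonic bases with genes on the opposite strand, among them Anxa11os and Plac9.

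*Anxa7*, whose product binds the calcium sensor ALG-2 and takes part in membrane fusion and repair, was the member with the most RNA. *Anxa7* (ENSMUSG00000021814, chromosome 14 from 20505328 to 20530201, minus strand) stood at 24.1 to 78.3 CPM in CRE libraries with a median of 63.8, and at 44.5 to 66.9 in RFP libraries with a median of 56. The groups overlapped throughout, and the log2 fold change was 0.077 (SE 0.14, adjusted p = 0.737 from edgeR), with a 95% interval from -0.22 to 0.37. Its lowest value in the 21 libraries was that of CRE1-3, and CRE3-3 was lower still at 8.18 CPM from 12 counts. In the 19 libraries its log2 fold change was 0.14 (SE 0.098, adjusted p = 0.261 from edgeR).

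*Anxa3* (ENSMUSG00000029484, chromosome 5 from 96940544 to 96993828, plus strand), a smaller annexin known from glia and endothelium, was low and uneven. It ranged from 0.362 to 5.62 CPM in CRE libraries with a median of 1.59, and from 0 to 8.77 in RFP libraries with a median of 0.162. RFP3-1 alone held 8.77 CPM, more than any CRE library. The log2 fold change was 0.60 (SE 0.77, adjusted p = 0.606 from edgeR), with a 95% interval from -0.97 to 2.18. Without RFP3-1 it was 1.72 (SE 0.73, adjusted p = 0.0798 from edgeR). On the 21 libraries limma-voom gave 2.49 with an adjusted p of 0.018, and why it differs from edgeR was not tested.

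Annexin A1, a target of glucocorticoids that signals through formyl peptide receptors, was at the edge of detection. *Anxa1* (ENSMUSG00000024659, chromosome 19 from 20350792 to 20368374, minus strand) lay between 0 and 2.71 CPM in CRE libraries with a median of 0.683, and between 0 and 4.09 in RFP libraries with a median of 0.386. It had 0 counts in 2 CRE and 3 RFP libraries, which allows up to 0.409 CPM in the shallowest of the 21 libraries. The gene did not pass the filter on low counts and no difference was detectable at these counts.

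The plot of log2 fold changes shows the 9 tested members in the 3 sets of libraries. *Anxa2* moved most among the called members between the 21 and the 19 libraries, from 1.54 to 1.37.

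**Figure D2:**
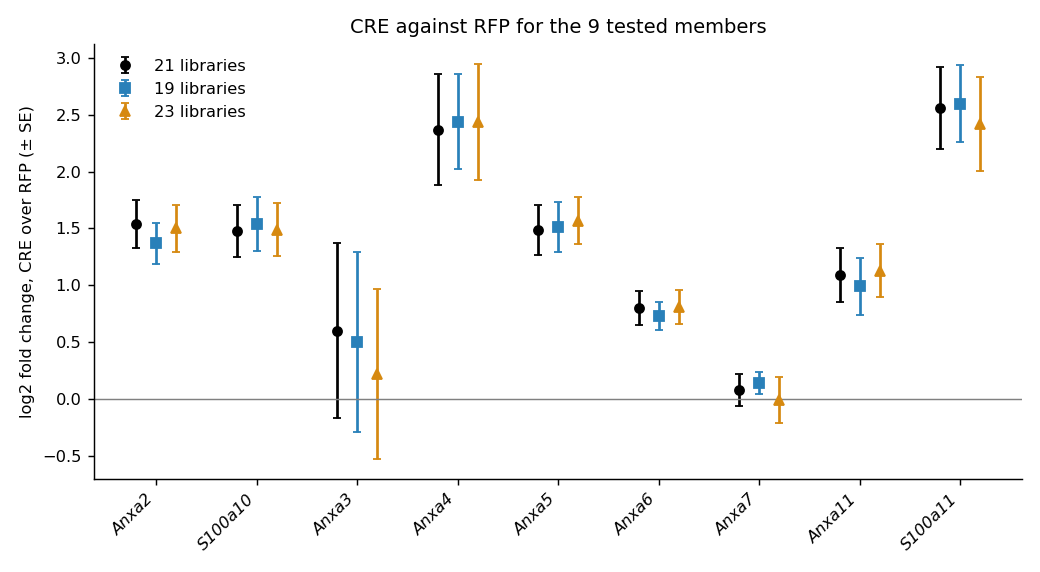
Points are log2 fold changes of CRE over RFP with their standard errors from edgeR, for the 21, 19 and 23 libraries. Values of *S100a11* and *Anxa4* lie above 2 in each set, and those of *Anxa7* between -0.009 and 0.14.

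Levels of different genes were compared per length, as CPM per kb of the canonical transcript. This transcript has 3419 bases for *S100a10*, 2328 for *S100a11* and 1447 for *Anxa2*. Which transcripts the cultures expressed was not determined, and the orders, shares and ratios of members below depend on these lengths. In RFP libraries *Anxa7* led with 19.8 ± 2.85 CPM per kb (SD, n = 10), above *Anxa6* in all 10 libraries and without overlap. *Anxa6* followed at 10.3 ± 1.72, *Anxa5* at 6.27 ± 2.61 and *Anxa2* at 5.61 ± 1.06, and the order of *Anxa5* and *Anxa2* was split evenly, with 5 of 10 libraries each way. *S100a10* stood at 3.24 ± 1.66, and the remaining 5 members averaged 0.422 to 1.34 CPM per kb.

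In CRE libraries the first 4 members lay close together, at 21.1 ± 5.11 CPM per kb for *Anxa7*, 18.2 ± 5.94 for *Anxa6*, 17.9 ± 4.4 for *Anxa5* and 16.6 ± 6.37 for *Anxa2* (SD, n = 11). *Anxa6* exceeded *Anxa5* in 5 of 11 libraries and *Anxa5* exceeded *Anxa2* in 5 of 11, so that these neighbours did not differ beyond their spread. *Anxa2* was above *S100a10* (9.21 ± 1.82) in all 11 libraries, and *S100a11* reached 7.92 ± 3.48. In CPM without length the means went the other way, at 31.5 for *S100a10* and 24 for *Anxa2* in CRE libraries. In RFP libraries they were 11.1 and 8.12 CPM. The order of the first 7 members by mean CPM per kb was the same in both groups. Behind them, *Anxa3* had the higher mean than *Anxa4* in RFP libraries through RFP3-1, but lay above it in only 2 of 10 of them, and *Anxa4* was above *Anxa3* in 9 of 11 CRE libraries.

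Summed over the 10 members, the level was 98 ± 15.9 CPM per kb (SD, n = 11) with CRE, from 67.9 to 121, and 49.6 ± 5.37 (SD, n = 10) with RFP, from 42.8 to 59.6. Every CRE library was above every RFP library in this sum, as the plot of the summed level shows. *Anxa7* made up 40 ± 5% of the sum in RFP libraries and 21.9 ± 5.09% in CRE libraries. *S100a11* went from 2.62 ± 1.79% to 8.01 ± 2.94% of it. *Anxa6* held 21 ± 4.3% and 18.7 ± 5.11%.

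**Figure D3:**
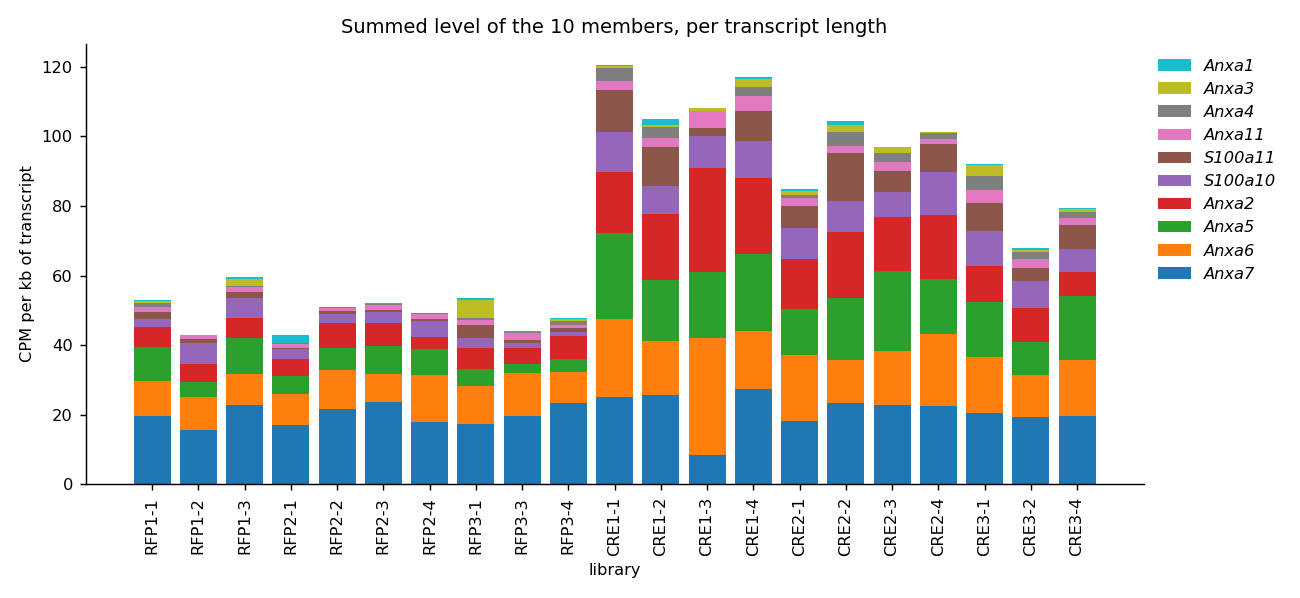
Bars stack the level of each member in CPM per kb of canonical transcript for the 21 libraries, RFP on the left and CRE on the right. The RFP sums lie between 42.8 and 59.6 and the CRE sums between 67.9 and 121, with the *Anxa7* segment at the bottom of similar height in all but CRE1-3.

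The RNA of *Anxa2* per *S100a10*, as a ratio of CPM per kb, was 1.81 ± 0.652 (SD, n = 11) for CRE and 2.32 ± 1.53 (SD, n = 10) for RFP, with overlapping ranges of 1.04 to 3.21 and 0.778 to 5.94. By culture the mean ratio in CRE libraries was 2.3 in culture 1, 1.82 in culture 2 and 1.12 in culture 3. In RFP libraries it was 1.49, 1.8 and 3.83 in the same order. The order of the culture numbers was therefore opposite in the groups, with 3 or 4 libraries behind each mean and no test of the ratio. Whether CRE and RFP libraries of the same number share a culture is not known.

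Between libraries of the same culture number, CRE libraries had the higher mean of all 7 called members in each of the 3 cultures. These members were called from the same libraries, so the shared direction adds no independent support. *Anxa2* differed by 1.99 (SE 0.31) on the log2 scale in culture 1, by 1.54 (SE 0.26) in culture 2 and by 0.64 (SE 0.34) in culture 3, where CRE libraries held 10.1 to 15.1 CPM and RFP libraries 7.04 to 9.38. *S100a10* went the other way, with 1.08 (SE 0.38), 1.46 (SE 0.24) and 2.20 (SE 0.38). *S100a11* differed by 2.30 (SE 0.59), 3.61 (SE 0.40) and 1.78 (SE 0.58), and *Anxa5* by 1.33 (SE 0.36), 1.34 (SE 0.24) and 1.94 (SE 0.37).

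*Anxa3* was the member whose cultures looked least alike, at 0.33 (SE 1.13) and -0.24 (SE 1.22) in cultures 1 and 3, and at 4.55 (SE 1.04, adjusted p = 0.00601 from edgeR within that culture) in culture 2. In culture 2 the 4 CRE libraries held 0.362 to 3.34 CPM and the 4 RFP libraries at most 0.205. *Anxa7* was at 0.15, 0.066 and -0.02 in the 3 cultures.

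A test of the virus by culture interaction called none of the 9 tested members, and 0.0069% of all genes. Unadjusted p-values from edgeR were under 0.05 for *Anxa2* (p = 0.00969) and *Anxa3* (p = 0.0289), and the adjusted p was 0.977 for both. No difference between the cultures in the plot by culture was thus called.

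**Figure D4:**
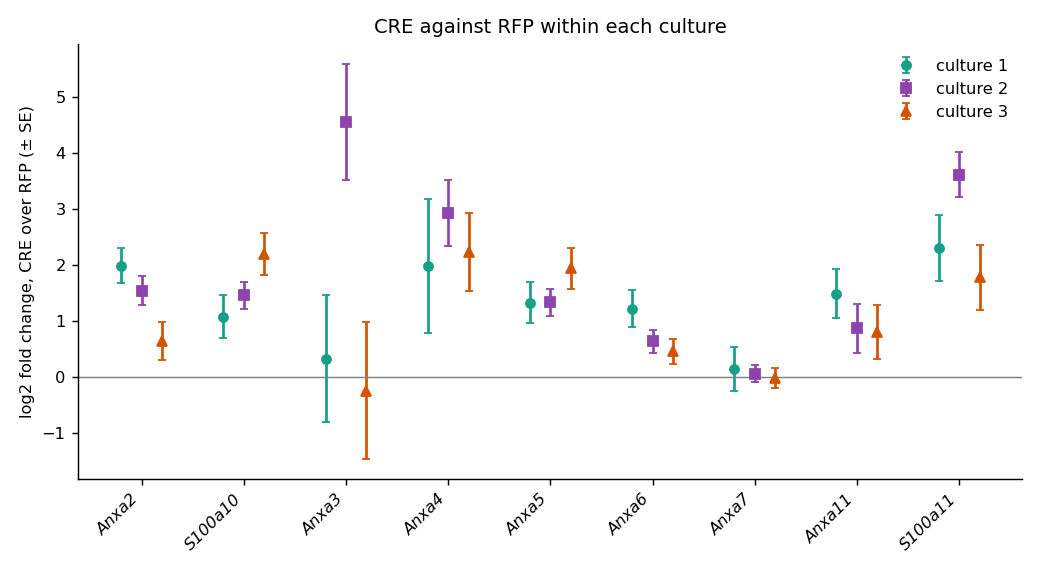
Points are log2 fold changes of CRE over RFP with standard errors from edgeR fits within culture 1 (4 CRE and 3 RFP libraries), culture 2 (4 and 4) and culture 3 (3 and 3). The 7 called members lie above 0 in every culture, *Anxa7* lies at 0, and *Anxa3* departs from 0 in culture 2.

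The remaining annexins, *Anxa8*, *Anxa9*, *Anxa10* and *Anxa13*, had at most 1.93 CPM in any of the 21 libraries and none passed the filter. Of 14 other S100 genes, 5 were tested. *S100b*, an astrocyte product, fell by 1.11 on the log2 scale (SE 0.23, adjusted p = 0.000547 from edgeR), from 25.4 ± 8.69 (SD, n = 10) to 11.9 ± 5.04 CPM (SD, n = 11). *S100a6*, which binds annexins A2 and A11, rose from 2.66 ± 1.66 to 6.51 ± 2.28 CPM, a log2 fold change of 1.27 (SE 0.35, adjusted p = 0.00648 from edgeR). *S100a1*, *S100a13* and *S100a16* stood at 0.69, 0.39 and -0.30 and were not called.

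Genes whose products work with the annexin A2 and S100A10 tetramer, such as plasminogen activators bound at the surface, channels and receptors trafficked by p11, numbered 16, of which 12 were tested. Of these, 5 were called higher and 1 lower, with a median log2 fold change of 0.61 against 0.019 over all genes tested. The shares over all genes were 16.4% called higher and 30.2% called in either direction. *Plat*, tissue plasminogen activator, rose from 33.2 ± 5.36 (SD, n = 10) to 114 ± 35.7 CPM (SD, n = 11), a log2 fold change of 1.76 (SE 0.17, adjusted p = 2.08e-08 from edgeR). *Plau*, urokinase, rose from 0.43 ± 0.324 to 4.06 ± 2.78 CPM (log2 fold change 3.22, SE 0.51, adjusted p = 2.46e-05 from edgeR). All 11 CRE libraries exceeded every RFP library for both activators, as they did for 2.64% of all genes tested. Plasminogen itself, *Plg*, had 0 counts in all 21 libraries. *Htr4*, a serotonin receptor that binds p11, fell by 0.79 on the log2 scale (SE 0.23, adjusted p = 0.0117 from edgeR), with 8 of 11 CRE libraries below every RFP library. *Nup62*, a nuclear pore protein, rose by 0.67.

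Membrane repair genes, with calpains, ferlins and caveolae, showed 4 higher and 2 lower of 14 tested and a median of 0.30. Over all genes, 16.4% were called higher and 30.2% in either direction. *Dysf*, dysferlin, rose from 0.578 ± 0.627 to 3.49 ± 1.32 CPM, a log2 fold change of 2.53 (SE 0.56, adjusted p = 0.00117 from edgeR). *Myof*, myoferlin, rose by 1.82 and *Cavin1*, a coat protein of caveolae, by 1.77. *Otof*, a ferlin of hair cell synapses, fell by 1.76. For ALG-2 and ESCRT genes, which work with annexins A7 and A11, 2 of 12 were higher and 1 lower, at a median of 0.24, shares close to the 16.4% of all genes called higher and below the 30.2% called in either direction. The called ones were *Sec31a* at 0.40, *Pdcd6ip* at 0.35 and *Vps4a* at -0.29.

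Of 10 genes for annexin A1 receptors, phospholipase A2 and its products, 5 were tested and 2 called higher, against 16.4% of all genes. These were *Pla2g4a*, by 2.75, and *Ptgs1*, by 2.12 on the log2 scale. The receptor genes *Fpr1*, *Fpr2* and *Fpr3* had at most 2 counts in any library. Genes that expose phosphatidylserine, the ligand of annexin A5, or clear cells that show it had 3 higher and 1 lower of 13 tested, with a median of 0.18, a share of calls close to the 30.2% of all genes. *Ano6*, a scramblase, rose by 0.87 (SE 0.12, adjusted p = 2.94e-06 from edgeR), and *Mfge8*, a bridging protein, fell by 0.61.

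**Figure D5:**
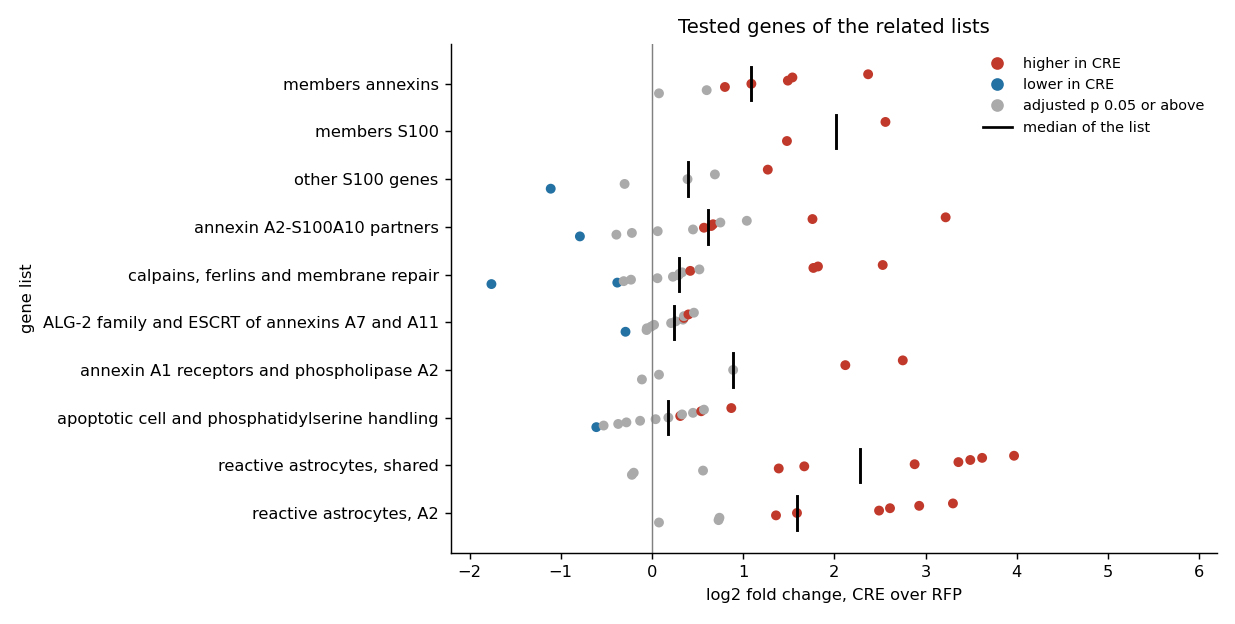
Points are log2 fold changes of CRE over RFP for the tested genes of each list, coloured by the call at an adjusted p under 0.05, and black lines are the medians. Both reactive astrocyte lists, at medians of 2.28 and 1.59, and the S100 members, at 2.02, lie farthest to the right.

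The cultures are mixed, and in bulk RNA fewer cells of a type and less RNA per cell cannot be told apart. Genes of reactive astrocytes, a state in which several annexins and S100 genes are known to be expressed, were higher for 7 of 10 tested genes shared by reactive states (median 2.28) and for 6 of 9 of the state named A2 (median 1.59), with none lower. Over all genes tested, 16.4% were called higher. Summed levels of the shared list overlapped, at 498 to 1980 CPM in CRE and 572 to 2050 in RFP libraries. *Gfap* and *Vim* had the highest means of this list, at 609 and 470 CPM in CRE and 702 and 177 in RFP libraries. *Vim* rose by 1.39 on the log2 scale (SE 0.21, adjusted p = 1.27e-05 from edgeR). Summed levels of the A2 list were 56.2 to 125 CPM in CRE and 19.6 to 48.1 in RFP libraries. *Lcn2* rose by 3.97, *Osmr* by 3.62, *Hspb1* by 3.49 and *Cp* by 3.36, and of the second list *Tm4sf1* rose by 3.30 and *Sphk1* by 2.49. In RFP libraries the medians of *Lcn2* and *Hspb1* were 0 CPM. *Gfap*, the defining filament of astrocytes, and *Serpina3n*, both of the shared list, stood at -0.22 and -0.2 (adjusted p = 0.589 and 0.59 from edgeR). The part of such cells in the levels of the members was not tested.

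Marker lists for cell types were set beside all genes tested, of which 16.4% were called higher and 30.2% in either direction. Neuron markers had 1 higher and 7 lower of 12, with a summed level of 4280 to 7110 CPM in CRE and 7290 to 8550 in RFP libraries. Astrocyte markers had 3 higher and 4 lower of 14, with sums of 2110 to 6980 and 4610 to 9380 CPM, and radial glia and progenitor markers had 3 higher and 5 lower of 12, with sums of 1260 to 2940 and 1150 to 1630 CPM. Oligodendrocyte lineage markers had 8 lower of 11 tested, with sums of 452 to 1980 and 694 to 2380 CPM.

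Mesenchymal and mural cell markers had 3 higher and 0 lower of 11 tested, against 16.4% of all genes called higher and 30.2% called in either direction. Their median log2 fold change was 0.88, against 0.019 over all genes tested. Their sums were 183 to 550 CPM in CRE and 23.1 to 192 in RFP libraries, with 10 of 11 CRE libraries above every RFP library. *Foxc1* and *Rgs5* made up much of this, at 55.8 ± 21.1 and 147 ± 80.1 CPM in CRE libraries against 3.62 ± 1.66 and 25.3 ± 12.6 in RFP libraries, while the third gene, *Pdgfrb*, rose by 0.81 on the log2 scale and collagens and *Dcn* were not called. Microglia markers summed to 5.72 to 14.1 CPM in CRE and 2.77 to 11.8 in RFP libraries, with 1 of 3 tested genes higher and *Cx3cr1*, *Itgam* and *Trem2* at 0 in 18 of 21 libraries. Endothelial markers summed to at most 12.4 CPM, with *Cldn5* at 0 in 19 of 21 libraries and the only tested gene, *Kdr*, lower. Ependymal and choroid plexus markers had no call among 4 tested genes, with sums of 10.3 to 58.7 and 12.3 to 53.3 CPM. How far these cell types carry the members was not tested.

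*Anxa2* had the smallest p among the members, and the genes whose log2 CPM followed it most closely over the 21 libraries were *Gbe1*, glycogen branching enzyme, at a Pearson correlation of 0.943, *Gsr*, glutathione reductase, at 0.94, *Hspb8*, a small heat shock protein, at 0.94, *Gstm1*, a glutathione transferase, at 0.937, and *Txnrd1*, a thioredoxin reductase, at 0.933. The libraries of both groups enter these values, so the difference between CRE and RFP is part of each correlation. *Gsr* averaged 101 ± 29.7 CPM with CRE (SD, n = 11) against 24.8 ± 4.25 with RFP (SD, n = 10), and *Txnrd1* averaged 698 ± 192 against 119 ± 13.9 CPM.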

How the data were processed

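RNA-seq counts of 23 libraries were analysed. The authors prepared stranded mRNA libraries (Illumina) for a NovaSeq6000. Alignment was to GRCm39 and its Ensembl 110 genes (STAR 2.7.8a in the submitters' processing notes), and featureCounts (1.5.0-p1 in the same notes) gave 1 count per gene. The authors deposited these counts as whole numbers without normalization. Strand setting and treatment of reads that map to several places are not given in the sources used here. GENCODE M39, of the same build, named 56323 of the 56941 gene rows.

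CRE and RFP were compared with edgeR 4.0.16 in R 4.3.3 (filterByExpr, TMM, estimateDisp, robust glmQLFit, glmQLFTest), with p-values adjusted by Benjamini-Hochberg across every gene tested and a threshold of 0.05, in 21 libraries and without covariates. The study used a 2-group Wald test and its methods name another pair of removed libraries, so that those libraries, 19 libraries and all 23 were alternatives. DESeq2 1.42.0, limma-voom (limma 3.58.1), other scaling, filters, a GC correction, culture or library number as a block, a random effect, sums per culture, and leaving out each culture or library were the others. The interaction in 19 and in 23 libraries was added after seeing the data. CPM used TMM factors of the 23 libraries, from genes past the filter. Limits from 3 counts cover counting error only. No pair of libraries agreed within sampling noise (lowest chi-square per degree of freedom 10.9).

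Members, lists and tests were chosen with earlier results of these data known. Named are all members, up to 4 called genes of each list with the largest fold changes, tested genes of the other annexins and S100 genes, the 5 genes most correlated with the member of smallest p, and *Nedd8*. Genes named outside this rule (such as *Plg*, *Gfap* and the formyl peptide receptors) were chosen after their values were seen. Figures were drawn with matplotlib 3.10.9.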

Additional observations from a re-analysis of the deposited data

Results flagged for a closer look

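In the 10 RFP libraries, *Anxa1* stood at 4.09 CPM in RFP2-1, far from the next highest library at 1.07 CPM, with a gap of 0.739 of the whole range. *Anxa3* stood at 8.77 CPM in RFP3-1, against 3.2 in the next, a gap of 0.636 of the range. Both gaps pass Dixon's 95% critical value, which chance passes in about 1 of 20 groups of normally distributed values and at an unknown rate for counts near 0. Only the 10 members in RFP libraries were screened in this way, and the 11 CRE libraries were not. RFP3-2, which is not among the 21 libraries and carries the same culture number as RFP3-1, held 5.75 CPM of *Anxa3* from 32 counts.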

How the results depend on the processing

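The 7 called members were fitted under up to 38 alternative settings, 264 values in all, and 263 of these were calls in the same direction. The exception was *Anxa4* without culture 2 (2.1, adjusted p = 0.0523 from edgeR), and with at least 10 counts in every library *Anxa4*, *S100a11* and *Anxa3* could not be fitted. The number of members called higher ranged from 6 to 7 when a culture or library was left out, was 5 with that stricter filter and 8 with limma-voom and with culture as a random effect, where *Anxa3* was called (2.49 and 2.50). With a culture or library left out, *Anxa3* ran from -0.078 (without culture 2) to 1.72 (without RFP3-1) and *Anxa7* from -0.001 to 0.16 (without CRE1-3). *Anxa7* also changed sign with all 23 libraries (-0.009), with culture and library number as a replicate block (-0.02) and without CRE1-4 (-0.001). Neither was called there, and the cause was not tested. *Anxa1*, fitted only without a filter and on sums per culture, stood at 0.17 and 0.25 with adjusted p of 0.904 and 0.835.

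Over all genes, 2374 were called higher and 1996 lower. Without a filter 32701 genes were tested, of which 4367 were called higher and 2553 lower. With culture and library number as a replicate block 1512 were called higher and 1640 lower. The reason for these shifts was not tested. Leaving out a culture or a library gave 1311 to 2790 higher and 803 to 2717 lower, and 38 to 84 called genes of the other lists against 71, the lowest of each without culture 2 and the highest without CRE1-3. Same-named CRE and RFP libraries deviated together with correlations of -0.0621 to 0.115 and culture means with 0.0207 to 0.141, so the numbers were not taken to pair the samples. The culture number as a replicate block gave 2308 higher and 1959 lower genes and lost no call of a member. The interaction called 0 members in 23 and in 19 libraries too. Low counts limit *Anxa1*, *Anxa3* and *Anxa4*, which had 0 or 1 counts in some libraries. RFP1-2, with a total of 13355482 counts, was among these for all 3 genes.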
